A study of Mus musculus with 6 samples.

Results

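The 10 genes described here encode core components of planar cell polarity in mouse, without Dishevelled: the cadherins Celsr1, Celsr2 and Celsr3, the membrane proteins Vangl1 and Vangl2, the receptors Fzd3 and Fzd6, the cytoplasmic proteins Prickle1 and Prickle2, and the scaffold Scrib. They were taken by symbol from a deposited table of 56980 genes, and each symbol matched 1 row. The list was chosen by the values of Celsr1, which were lower in the FNZ ovaries, so its difference between the groups is described without a test, and the other genes were added by name. Whole ovaries of ICR mice, an outbred stock, were sequenced as poly(A) RNA in 6 libraries. The 3 control libraries (replicates 2, 3 and 4) came from mice injected with solvent, and the 3 FNZ libraries (replicates 2, 3 and 5) from mice given FNZ at 30 mg/kg into the peritoneum daily for 7 days. The vehicle was 50% polyethylene glycol 400 in saline. The labels give FNZ only by these letters, state no age, genotype or number of mice, and do not say whether the 3 ovaries of a group came from separate animals, so p-values measure only the spread between these samples. The study is titled for blockade of T-type calcium channels, and the comparison asks how ovarian transcripts differ after that treatment.

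Planar cell polarity is the alignment of cells within the plane of a tissue. Celsr cadherins join neighbouring cells, and Frizzled receptors with Dishevelled gather on the face of a cell opposite to Vangl and Prickle, so that each junction carries an asymmetric bridge. Scrib binds the tail of Vangl proteins and also belongs to the apicobasal polarity system. In the mouse the pathway is known for closure of the neural tube and the orientation of hair cells of the inner ear, and Celsr1 for the alignment of epithelial cells in the oviduct.

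The Vangl and Prickle families end in short motifs through which they are anchored. The last 45 bases of their longest annotated coding sequences are shown because they show how alike the paralogs are, with the last 12 bases before the stop codon in capitals. Those bases encode the PDZ-binding motif by which Vangl proteins contact Scrib, and the prenylation motif that attaches Prickle proteins to membranes.
Vangl1: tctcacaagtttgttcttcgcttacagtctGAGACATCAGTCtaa
Vangl2: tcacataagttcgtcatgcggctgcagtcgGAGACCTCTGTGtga
Prickle1: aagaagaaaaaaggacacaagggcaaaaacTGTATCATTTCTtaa
Prickle2: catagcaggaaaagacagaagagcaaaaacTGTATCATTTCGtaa
Over these 45 bases Vangl1 and Vangl2 are identical at 31, with no identical run above 5 bases. Prickle1 and Prickle2 are identical at 35, with a longest run of 19 bases, and at 11 of the 12 capital bases. Across whole transcripts (GENCODE M21, GRCm38) the members share few words of 25 bases with any other gene, from 0% of the words of Prickle1 to 3.76% of those of Fzd6. Most of what Fzd6 shares lies in Gm26704, an annotated non-coding RNA on the opposite strand that overlaps 152 of its exonic bases. Nothing at hand says which strand was counted, so the count of Fzd6 is uncertain to that extent. Celsr1 shared 9 words of 11048 with Celsr3 and 19 with all other genes together, so reads of these large cadherins can be told apart.

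Library totals ran from 19333493 to 23406628 expected counts. By quasi-likelihood testing in edgeR, 0 of 17735 genes (0%) passed at a Benjamini-Hochberg adjusted p under 0.05, with a smallest adjusted p of 0.111 and 4107 genes at an unadjusted p under 0.05. DESeq2 called 1462 genes, limma voom 2 and limma on TPM 1, and without FNZ replicate 3 edgeR called 3230, or 17.6% (9.64% lower, 7.99% higher). The libraries also differed by gene length. The rank correlation between a gene's length and its deviation from its mean ranged over the controls from 0.26 to 0.32, and for the FNZ libraries was -0.46 (replicate 2), 0.08 (replicate 3) and -0.30 (replicate 5), computed across genes that are not independent replicates. All 10 polarity genes, at 4085 to 12734 bases, are longer than the median tested gene of 2705 bases. For each tested polarity gene the fold change is therefore followed by one from a fit with the length trend of every library removed. This fit is called the length offset. Every control library lay above every FNZ library in the length correlation, so the offset would also take out a treatment difference that follows length. Such a difference and a technical length trend cannot be told apart here.

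In TPM, which is scaled for transcript length, Scrib had the highest level of the family and Celsr3 the lowest. Scrib measured 34.2, 31.1 and 34.0 TPM in control replicates 2, 3 and 4. It lay above every other member in each control library. Between 13.8 and 6.77 TPM on average over the controls came, in falling order, Prickle1, Fzd6, Vangl1, Celsr1, Fzd3, Vangl2 and Prickle2. Neighbours in this series had overlapping control ranges, so their order was not resolved. Celsr2 followed at 3.65 ± 1.18 TPM (SD, n = 3), below the range of Prickle2, and Celsr3 at 0.1 ± 0.08 TPM. Over all tested genes the median log2 ratio of mean TPM, FNZ over control, was -0.22, and TPM differences below are to be read against this shift.

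**Figure D1:**
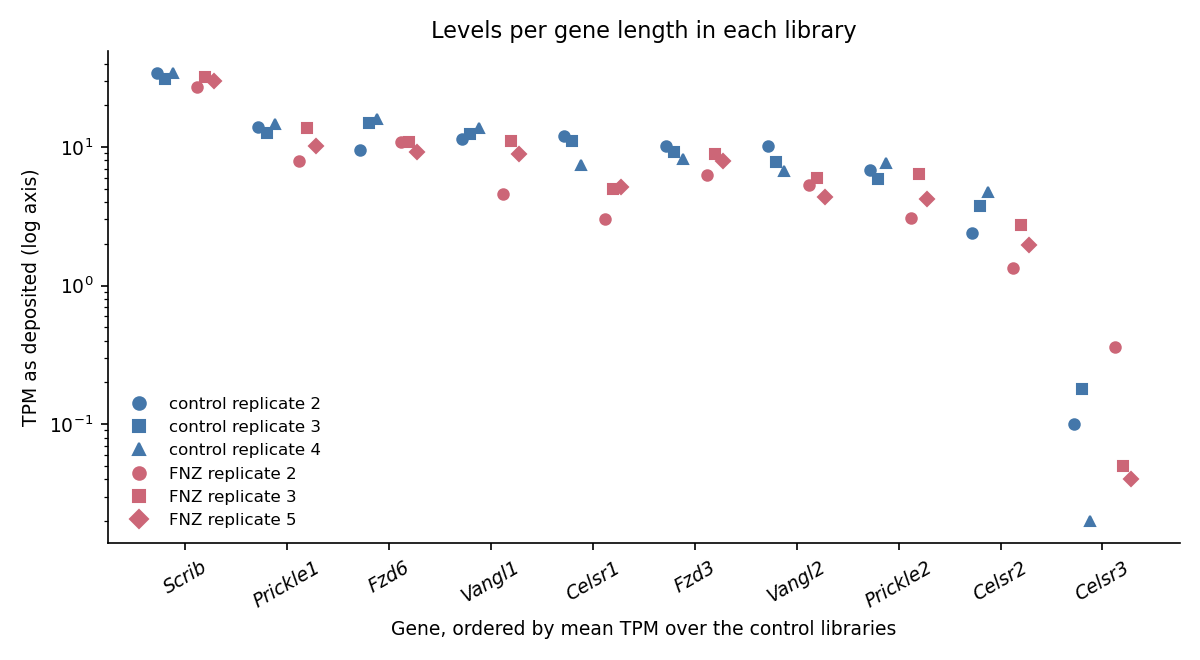
TPM as deposited (vertical log axis) of each polarity gene in the 6 libraries, ordered by the mean over the control libraries; points are single libraries. Scrib stands at the top at 27.2 to 34.2 TPM and Celsr3 at the bottom at 0.02 to 0.36 TPM, with the other genes between.

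The Celsr cadherins are very large adhesion receptors whose extracellular repeats form the bridge between cells. Celsr1 (ENSMUSG00000016028, chromosome 15) measured 48.2, 46.8 and 36.7 CPM (read counts scaled by TMM library size) in control replicates 2, 3 and 4, and 16.8, 21.8 and 21.4 CPM in FNZ replicates 2, 3 and 5. Every FNZ library lay below every control library, as did 13.8% of all tested genes, and here this is a description because it chose the list. The group means were 43.9 ± 6.24 and 20.01 ± 2.78 CPM (SD, n = 3 each), 2.19 times as high in control. The log2 fold change was -1.13 ± 0.16 (SE) and -0.81 ± 0.18 with the length offset, and the authors' deposited table gives -1.15. Leaving out single libraries gave -1.25 (without control replicate 4) to -1.01 (without FNZ replicate 2). In TPM, Celsr1 measured 11.9, 11.03 and 7.40 in control and 3.02, 4.95 and 5.17 in FNZ ovaries.

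Celsr2 (ENSMUSG00000068740, chromosome 3) measured 10.7, 10.8 and 15.5 CPM in control replicates 2, 3 and 4 and 5.13, 9.82 and 7.31 CPM in FNZ replicates 2, 3 and 5. The groups did not overlap in CPM, although FNZ replicate 3 came close to the lower controls, and they overlapped in TPM. The log2 fold change of -0.73 ± 0.28 did not pass edgeR's test (adjusted p = 0.178), and with the length offset it was -0.40 ± 0.21 (edgeR adjusted p = 0.374). It was called without FNZ replicate 3 (log2 fold change -0.99, edgeR adjusted p = 0.0433), an omission under which 9.64% of all genes were called lower. With the length offset added to that omission Celsr2 was not called (edgeR adjusted p = 0.217). Without FNZ replicate 2 its log2 fold change was -0.51.

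Celsr3 (ENSMUSG00000023473, chromosome 9), known in mouse for guiding axons, had 3, 8 and 4.01 expected counts in the controls and 6.01, 9.01 and 8.06 in the FNZ libraries. It did not pass the filter on low counts, so 9 of the 10 genes were tested, and no difference was detectable at this depth. Markers of nerve and Schwann cells, where Celsr3 would be sought, summed to 20.9 to 25.8 TPM in control and 20.1 to 27.6 TPM in FNZ ovaries over 7 genes, with none at 0. Within the family, Celsr1 held 82.6%, 73.7% and 60.7% of the summed Celsr TPM in the controls and 63.8%, 64.0% and 72.1% in the FNZ libraries. The shares overlapped, so the balance between Celsr1 and Celsr2 varied within the controls as much as between the groups.

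**Figure D2:**
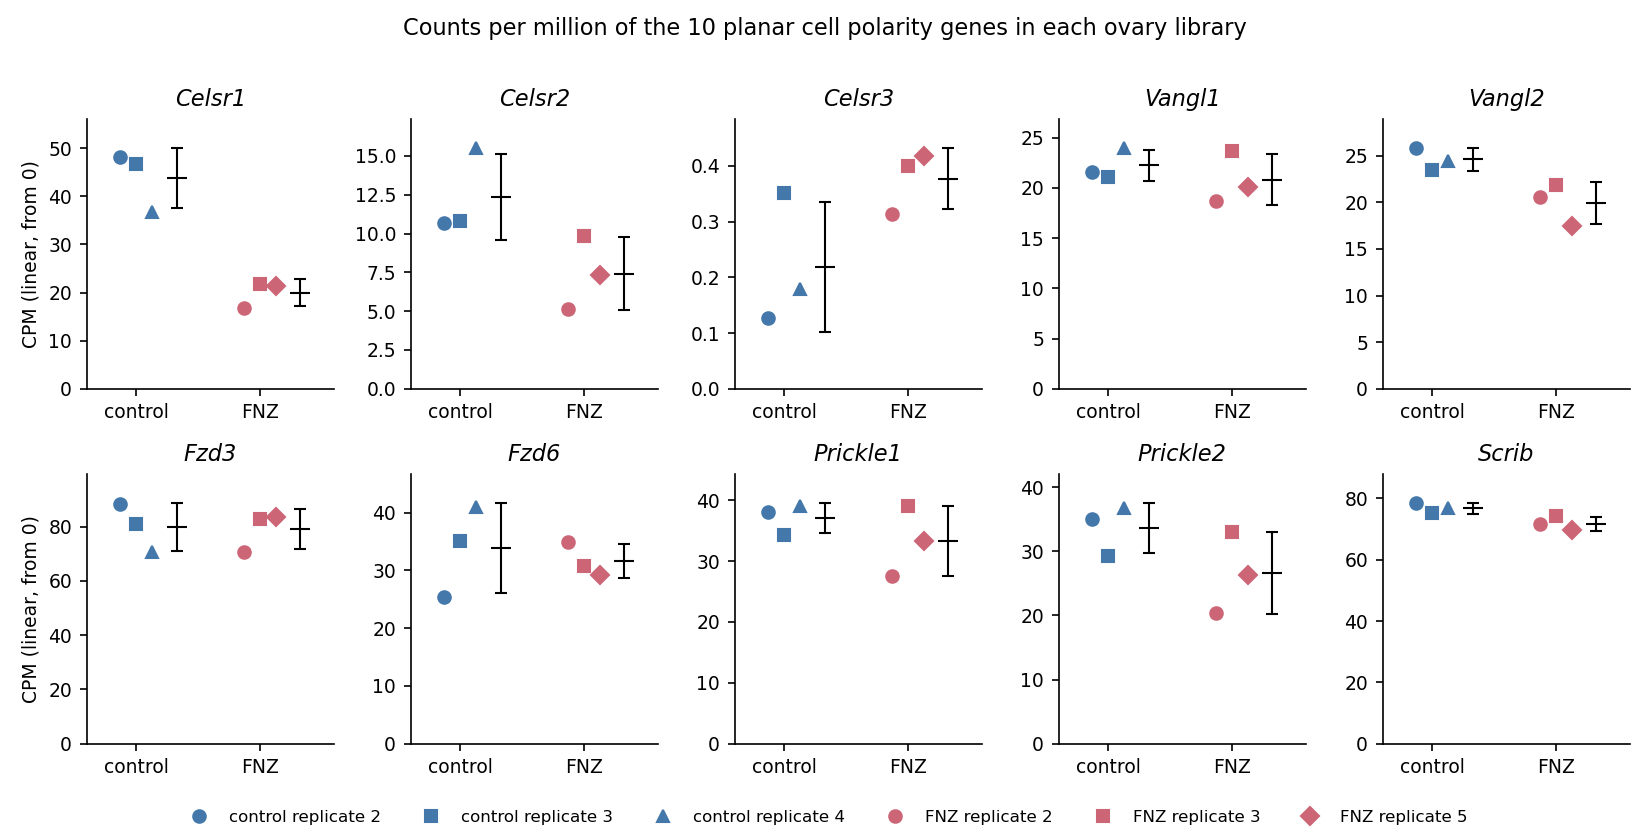
CPM of each polarity gene (vertical axes, linear from 0) in the 3 control and 3 FNZ libraries; points are libraries and bars the mean ± SD. Celsr1, Celsr2, Vangl2 and Scrib have no overlap between groups, and the gap is widest for Celsr1 at 36.7 against 21.8 CPM.

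Vangl proteins span the membrane and recruit Prickle to their side of the junction. Vangl2 (ENSMUSG00000026556, chromosome 1), whose loss in mouse leaves the neural tube open, measured 25.9, 23.5 and 24.4 CPM in the controls and 20.5, 21.9 and 17.4 CPM in FNZ replicates 2, 3 and 5. The groups did not overlap. The log2 fold change was -0.30 ± 0.13 (edgeR adjusted p = 0.211) and -0.08 ± 0.13 with the length offset (edgeR adjusted p = 0.790). Vangl1 (ENSMUSG00000027860, chromosome 3), which can act beside Vangl2, measured 21.6, 21.1 and 24.0 CPM under vehicle and 18.7, 23.7 and 20.1 CPM in FNZ ovaries, with overlapping groups. Its log2 fold change was -0.09 ± 0.13 (edgeR adjusted p = 0.704) and 0.16 ± 0.11 with the length offset (edgeR adjusted p = 0.515), so its sign depended on that step.

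Prickle proteins bind Vangl in the cytoplasm and hold the Vangl side of the complex together. Prickle1 (ENSMUSG00000036158, chromosome 15) measured 38.0, 34.2 and 39.0 CPM under vehicle and 27.6, 39.0 and 33.2 CPM in FNZ ovaries. Prickle2 (ENSMUSG00000030020, chromosome 6) measured 35.0, 29.3 and 36.8 CPM under vehicle and 20.4, 33.04 and 26.4 CPM in FNZ ovaries. In both genes FNZ replicate 2 was the lowest of all libraries and FNZ replicate 3 lay inside the control range. The log2 fold changes were -0.16 ± 0.14 for Prickle1 and -0.34 ± 0.19 for Prickle2 (edgeR adjusted p = 0.539 and 0.310), and -0.04 and -0.06 with the length offset. Without FNZ replicate 3 the value for Prickle2 was -0.53 (edgeR adjusted p = 0.0621), and without FNZ replicate 2 it was -0.17.

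Frizzled receptors occupy the opposite face, and Fzd3 and Fzd6 are the members of that family most tied to polarity in mouse. Fzd3 (ENSMUSG00000007989, chromosome 14) measured 88.5, 80.9 and 70.8 CPM under vehicle and 70.7, 83.0 and 83.7 CPM in FNZ ovaries. Its groups spanned almost the same range. The log2 fold change was -0.02 ± 0.12 (edgeR adjusted p = 0.946) and 0.32 ± 0.15 with the length offset (edgeR adjusted p = 0.327). Fzd6 (ENSMUSG00000022297, chromosome 15), which orients hair follicles in mouse, measured 25.4, 35.1 and 41.0 CPM under vehicle and 34.9, 30.8 and 29.3 CPM in FNZ ovaries. All FNZ values lay inside the spread of the controls (log2 fold change -0.10 ± 0.18, edgeR adjusted p = 0.776; 0.05 with the length offset).

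Scrib (ENSMUSG00000022568, chromosome 15), the scaffold that binds Vangl tails, measured 78.7, 75.1 and 76.7 CPM under vehicle and 71.5, 74.2 and 69.7 CPM in FNZ ovaries. The groups did not overlap, yet they were close (76.8 ± 1.76 and 71.8 ± 2.26 CPM, SD, n = 3 each). The log2 fold change of -0.10 ± 0.08 did not pass (edgeR adjusted p = 0.495) and was 0.12 ± 0.09 with the length offset (edgeR adjusted p = 0.560).

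Of the 8 tested members other than Celsr1, 0 were called by edgeR (adjusted p from 0.178 to 0.946), against 0% of all tested genes, and DESeq2 called 0 of these 8, against 9.55% of the genes to which it gave an adjusted p (5.29% lower, 4.27% higher). With the length offset edgeR called 0 of the 8, against 0.0113% of all genes (0.00564% in each direction). At an unadjusted p under 0.05 edgeR had 2, Celsr2 and Vangl2, both lower, where 11.2% of all tested genes were lower and 23.2% differed in either direction at that level. All 8 log2 fold changes were below 0, against 48.8% of all genes, with a median of -0.13 against 0.01. With the length offset 4 of the 8 were below 0, against 45.9% of all genes, and their median was 0.0049 against 0.03. In 3 of the 8 (Celsr2, Vangl2 and Scrib) the FNZ libraries lay below all controls, against 13.8% of tested genes, and 29.6% in either direction. In TPM this held for 2 of the 8 (Vangl1 and Vangl2), against 25.4%.

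**Figure D3:**
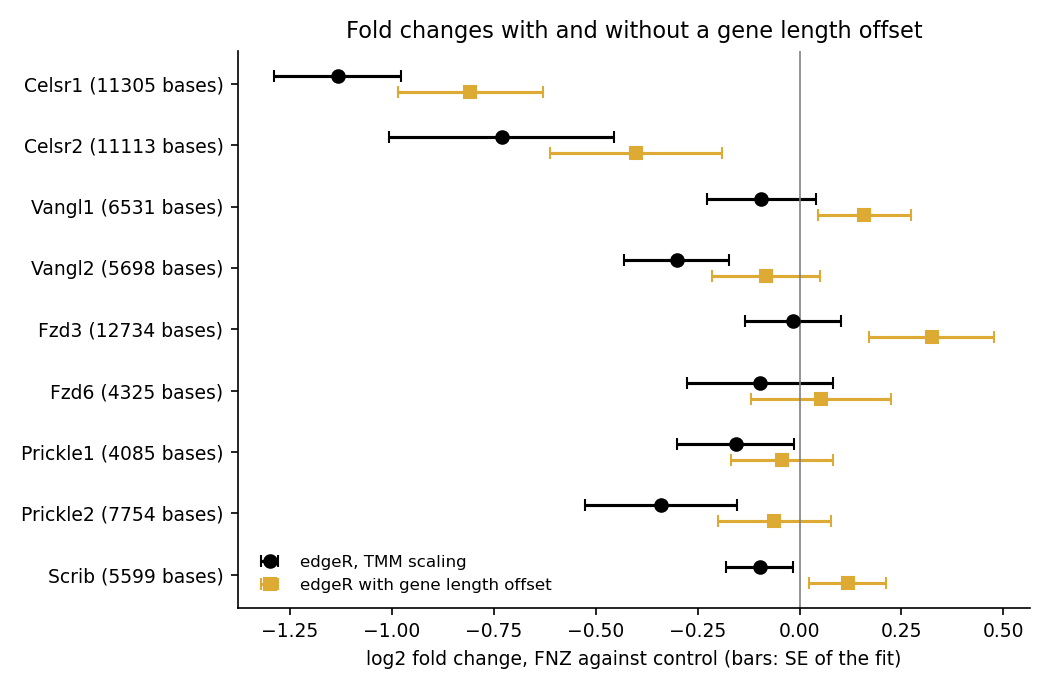
Log2 fold change, FNZ against control (horizontal axis), of the 9 tested polarity genes from edgeR with TMM scaling (circles) and with the gene length offset (squares); bars are the SE of the fit, and gene lengths stand beside the names. Celsr1 is farthest below 0 in both fits (-1.13 and -0.81), and Vangl1, Fzd3, Fzd6 and Scrib change sign between them.

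By library, the median deviation of the 8 tested genes other than Celsr1 from their control mean on the log2 scale was -0.25, -0.04 and -0.17 for FNZ replicates 2, 3 and 5, where the median over all tested genes was 0.02, 0.0051 and 0.03. The controls spanned -0.07 to 0.09. FNZ replicates 2 and 5, which had the lowest polarity genes, were also the libraries in which long genes were lowest. The part of the length trend in these deviations was not tested. The summed TPM of the 9 genes other than Celsr1 was 98.2 to 105.8 in control and 67.03, 91.98 and 76.55 in FNZ replicates 2, 3 and 5.

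Shares within the smaller families do not depend on library scaling. Prickle1 held 67.4%, 68.2% and 65.8% of the summed Prickle TPM in control and 72.1%, 68.3% and 70.8% in FNZ ovaries. Every FNZ library lay above every control, although FNZ replicate 3 did so by less than 0.1 percentage points (means 67.2% ± 1.23 and 70.4% ± 1.92, SD, n = 3 each; two-sided exact permutation p = 0.1, which is the lowest p possible with 3 per group). Prickle2 is the longer of the pair, at 7754 against 4085 bases, and the part of the length trend in this shift was not tested. Vangl2 held 39.7% ± 7.22 of the Vangl TPM in control and 40.4% ± 11.5 in FNZ ovaries (n = 3 each, two-sided exact permutation p = 0.9). Fzd6 held 58.8% ± 9.19 of the summed Fzd3 and Fzd6 TPM in control and 57.4% ± 5.35 in FNZ ovaries (n = 3 each, two-sided exact permutation p = 0.9). Adjusted over these 3 shares by Benjamini-Hochberg, the exact permutation p was 0.3 for Prickle1 and 0.9 for the other two.

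The ratio of a gene's counts to its TPM gives the mean transcript length with which the authors' quantification worked, once scaled on 480 genes with 1 annotated transcript (their 10th and 90th percentiles were 0.955 and 1.03 of the deposited length). For Prickle1 this implied length was 4132 to 4151 bases and for Fzd3 13339 to 13456 bases in all libraries, near the deposited 4085 and 12734. For Celsr1 it was 5252 to 7739 bases, against a deposited 11305, and for Celsr2 4395 to 6804 bases, against 11113. Both cadherins lay below the deposited length in every library, by amounts that varied between libraries.

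Vangl1 varied most among the members with enough counts. Its implied length was 2909, 2583 and 2735 bases in control replicates 2, 3 and 4, and 4801, 3108 and 2858 bases in FNZ replicates 2, 3 and 5. FNZ replicate 2 stood apart, and its spread over the libraries exceeded that of 98.7% of 10166 well-counted genes. The TPM of Vangl1 averaged 12.5 ± 1.14 (control) and 8.20 ± 3.28 (FNZ; SD, n = 3 each) with no overlap, while its CPM overlapped. Scrib had shorter implied lengths in every FNZ library (3109, 3335 and 2951 bases) than in every control library (3536, 3695 and 3515 bases). Its spread over the libraries exceeded that of 81.0% of the well-counted genes. The share of all genes with implied lengths so separated was not counted, and a change of isoform was not tested. Values per isoform were not used here. The length offset used the deposited lengths, which were 6531 bases for Vangl1 and 5599 for Scrib. For Celsr1, Celsr2, Vangl1, Vangl2, Fzd6 and Scrib these exceeded the implied lengths in every library. Vangl2 had implied lengths of 3872 to 5639 bases against a deposited 5698, and Fzd6 3599 to 4104 against 4325. How the offset values of these genes would differ with implied lengths was not tested.

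**Figure D4:**
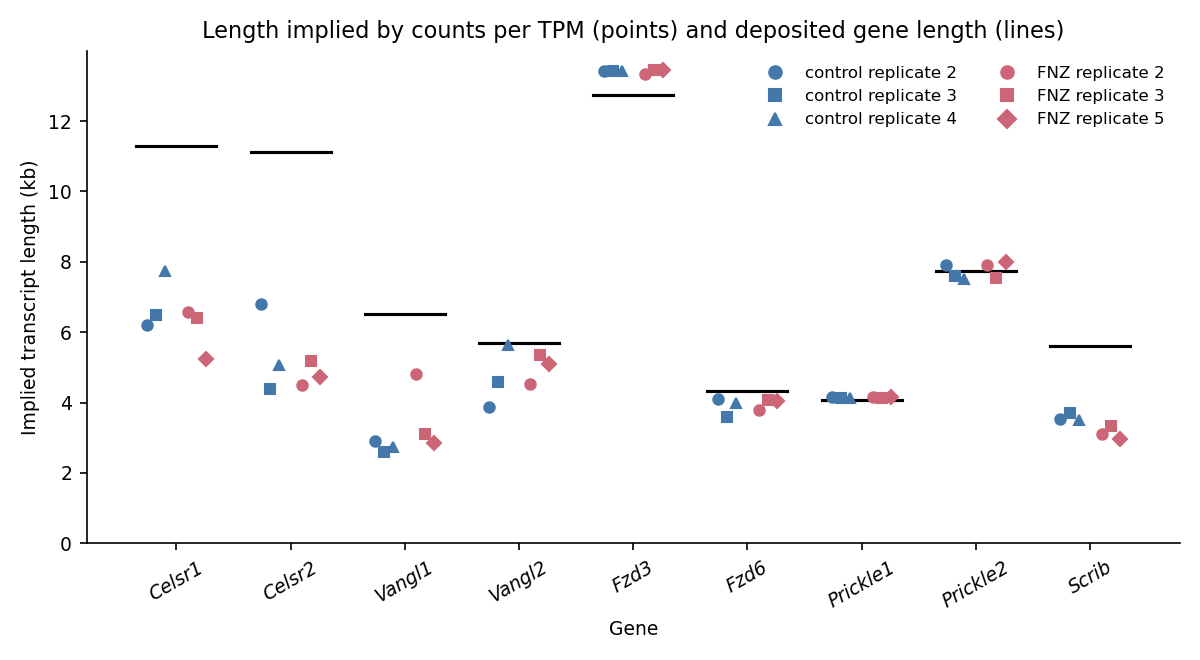
Transcript length implied by counts per TPM (vertical axis, kb) of 9 polarity genes in each library (points) with the deposited gene length (black lines); Celsr3 is left out because it had 3 to 9.01 counts. Prickle1 and Fzd3 are constant over libraries, and Vangl1 ranges from 2583 to 4801 bases.

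Whole ovaries hold several epithelia in which polarity genes are used, and in bulk RNA fewer cells of a type and less RNA per cell cannot be told apart. Granulosa and oocyte markers were present, with 4545 to 4611 TPM over 10 granulosa markers in control and 4405 to 5291 TPM in FNZ ovaries, and 369 to 560 and 278 to 559 TPM over 8 oocyte markers. The 10 surface epithelium markers summed to 172.9, 125.8 and 277.8 TPM in control replicates 2, 3 and 4. They summed to 126.8, 103.0 and 90.55 TPM in FNZ replicates 2, 3 and 5. All 10 had a log2 fold change below 0 (median -1.33, or -1.21 with the length offset). Against 13.8% of all tested genes, the FNZ libraries lay below all controls in CPM for 0 of the 10. edgeR called 0 of them, with 4 lower at an unadjusted p under 0.05 against 11.2% of all genes, and DESeq2 called 3 lower against 5.29%. Control replicate 3 lay within the FNZ range for Upk3b, a surface mesothelium gene, at 17.4 CPM against 4.75 to 18.9 CPM. The 12 oviduct epithelium markers summed to 514.6 TPM in control replicate 4 and to 41.9 to 101.8 TPM in the other libraries, with Mcidas at 0 counts in 4 of them. Ovgp1, the oviductal glycoprotein, made up 344.2 TPM of the sum in control replicate 4. It reached 554.7 CPM there, against 2.19 to 13.3 CPM elsewhere. Other oviduct markers were also raised in FNZ replicate 2. Foxj1 measured 34.2 CPM in control replicate 4, 15.8 CPM in FNZ replicate 2 and 0.26 to 2.13 CPM elsewhere. For Rsph1 these values were 16.8, 12.0 and 2.19 to 3.24 CPM. Pax8 was instead higher in FNZ replicate 3 (2.80 CPM) than in FNZ replicate 2 (1.47 CPM). Control replicate 4 had the lowest Celsr1 and the highest Celsr2 of the controls, and without it the log2 fold change of Celsr2 was -0.53 in place of -0.73. The 7 macrophage markers all had log2 fold changes below 0 (median -0.81, or -0.60 with the length offset). Their sums were 117.5 to 241.6 TPM in control and 99.4 to 132.5 TPM in FNZ ovaries. Of these 7 edgeR called 0, with 4 lower at an unadjusted p under 0.05 against 11.2% of all genes, and DESeq2 called 4 lower against 5.29%. FNZ replicate 3 stood apart in smooth muscle markers, which summed to 2789.8 TPM there and to 1106.6 to 1610.8 TPM in the other libraries. Theca and luteal markers summed to 5067.8 TPM there and to 3090.3 to 3573.1 TPM in the others. Both lists were picked after their values were seen. The part of any of these markers in the polarity gene values was not tested. Upk3b, Ovgp1, Foxj1, Rsph1 and Pax8 were named after their values were seen.

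Beyond the members, 73 genes of 6 roles in the pathway were examined, of which 71 were tested. edgeR called 0 of the 71, against 0% of all genes, with 15 lower and 2 higher at an unadjusted p under 0.05, where 11.2% of all genes were lower and 23.2% differed either way. DESeq2 called 5 lower (Daam1, Dlg5, Pard6g, Patj and Rhou) and 1 higher (Fuz) of 70, against 5.29% lower and 4.27% higher of all genes, and its 6 calls in either direction are near the background of 9.55%. The median log2 fold change was -0.18, against 0.01 for all genes, and -0.06 with the length offset, against 0.03. In 19 genes the FNZ libraries lay below and in 6 above all controls, where 13.8% of all genes lay below and 29.6% did not overlap in either direction. The median length of the tested genes was 4194 bases.

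Among Wnt ligands and co-receptors (12 tested, 9 below 0, median -0.27, or -0.13 with the offset), the most abundant were Gpc4, a cell surface glypican, and Ryk, a Wnt-binding receptor. Gpc4 measured 148 ± 9.81 and 174 ± 3.56 CPM and was higher in every FNZ library (log2 fold change 0.23 ± 0.09, edgeR adjusted p = 0.196). Ptk7, a polarity co-receptor, had the smallest p of these, at 113 ± 8.83 and 89.2 ± 12.0 CPM, a log2 difference of -0.34 ± 0.12 (adjusted p = 0.172 by edgeR). Ryk differed by 0.06 ± 0.09. With the length offset Gpc4, Ptk7 and Ryk were 0.24, -0.21 and 0.04. Of Dishevelled and further core partners (12 tested, 6 below 0, median -0.02, or 0.08 with the offset), Dvl1 and Dvl3, which relay the Frizzled signal, differed by 0.19 ± 0.11 and -0.24 ± 0.09 on the log2 scale (adjusted p = 0.348 and 0.178 by edgeR). The paralogs thus had opposite signs without either passing. With the length offset Dvl1 and Dvl3 were 0.21 and -0.13.

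Effectors (14 tested, 11 below 0, median -0.11, or -0.06 with the offset) included Rhou, a GTPase induced by Wnt signalling, which measured 48.3 ± 3.65 CPM in the controls and 29.5 ± 3.82 CPM after FNZ, with no overlap. The difference of -0.71 ± 0.13 on the log2 scale (adjusted p = 0.131 by edgeR) was -0.64 with the length offset. DESeq2 called Rhou (DESeq2 adjusted p = 0.000914). At its 3371 bases there was little length trend to remove. The length decile with a median of 3445 bases had a median log2 fold change of -0.07. Rhoa and Cdc42, the most abundant effectors, differed by -0.01 ± 0.10 and -0.11 ± 0.11 on the log2 scale (adjusted p = 0.965 and 0.574 by edgeR). With the length offset Rhoa and Cdc42 were -0.06 and -0.17. Fuz, a ciliary effector of polarity that DESeq2 called higher, measured 14.4 ± 1.07 and 24.7 ± 4.76 CPM, a log2 difference of 0.78 ± 0.17 (adjusted p = 0.131 by edgeR), or 0.65 with the length offset, and was named after its value was seen.

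Trafficking and turnover genes (10 tested, 7 below 0, median -0.14, or -0.07 with the offset) included Sec24b, a coat protein that sorts Vangl2 out of the endoplasmic reticulum, at 109 ± 1.02 and 92.3 ± 4.33 CPM with no overlap (log2 fold change -0.24 ± 0.08, edgeR adjusted p = 0.160; -0.05 with the length offset). Usp9x, a deubiquitinase of 11887 bases, went from -0.34 ± 0.11 (edgeR adjusted p = 0.147) to -0.00032 with the offset. In the Fat and Dachsous module (7 listed, 5 tested, 4 below 0, median -0.43, or -0.10 with the offset), a parallel cadherin system, Dchs1 and Fat1 differed by -0.58 ± 0.22 and -0.43 ± 0.27 on the log2 scale (adjusted p = 0.183 and 0.378 by edgeR). With the length offset Dchs1 (10754 bases) was -0.26 and Fat1 (13938 bases) -0.10. Among the apicobasal partners of Scrib (18 tested, 14 below 0, median -0.22, or -0.07 with the offset), Dlg5 and Pard6g, a scaffold and a subunit of the Par complex, had -0.59 ± 0.14 and -0.59 ± 0.13 (edgeR adjusted p = 0.131 each). With the offset they were -0.30 and -0.54. Erbin, a relative of Scrib, had -0.16 ± 0.10 and turned to 0.05 with the offset.

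**Figure D5:**
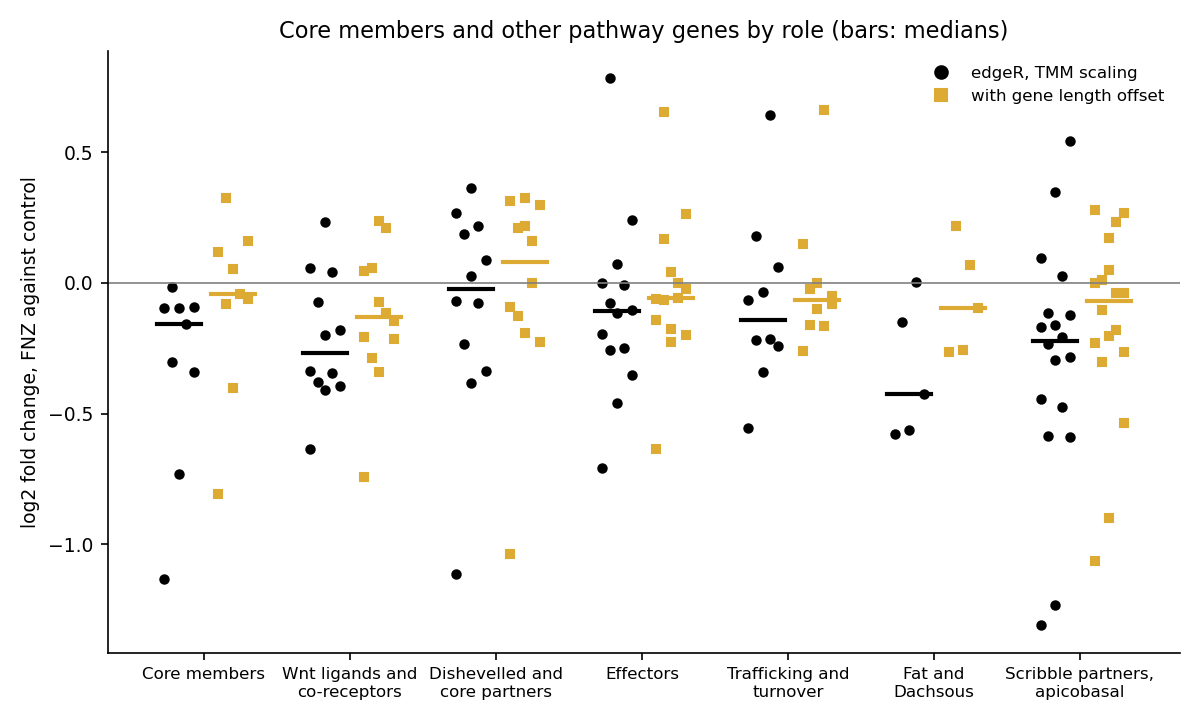
Log2 fold change, FNZ against control (vertical axis), of the 9 tested core genes and of 71 other pathway genes by role, from edgeR with TMM scaling (circles) and with the gene length offset (squares); horizontal bars are medians. The core median moves from -0.16 to -0.04 with the offset and the Fat and Dachsous median from -0.43 to -0.10, and with it Celsr1 and Rhou lie at -0.81 and -0.64.

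Of 11722 named genes of at least 5 CPM on average, Nipal1, Rc3h1, Abca6, Baz1a and Tnfrsf1b had the profile nearest to Celsr1 over the 6 libraries, by the root mean square difference of centred log2 CPM (0.155, 0.156, 0.190, 0.195 and 0.198). Nipal1 measured 26.6, 19.9 and 20.9 CPM in the controls and 8.79, 12.1 and 9.87 CPM after FNZ. No other polarity gene was among them, which says little because only 5 of 11722 genes are listed. The likeness of these genes to Celsr1 is a description of 6 libraries that fall into 2 groups.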

How the data were processed

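Poly(A) RNA of mouse ovaries was sequenced as paired reads, and 1 table was deposited. Expected counts are what the authors deposited as counts: 12.0% to 14.8% of values per library are not whole. TPM per library and gene length in bases were deposited by the authors, and how they were made is not stated. Also deposited were a log2 fold change with its p-value, raw and adjusted, for the same groups. The submitters' processing notes name bcl2fastq 2.20, DESeq2 1.38.3 and GRCm39 without giving their roles. The aligner, counting program and strand have no entry in the sources used here.

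Expected counts were rounded. The test was edgeR 4.0.16 under R 4.3.3 (TMM, filterByExpr, robust quasi-likelihood F test, two-sided) on the whole table with Benjamini-Hochberg adjustment. CPM uses TMM-scaled library sizes. The length offset removes, library by library, a loess curve (span 0.3) of log2 CPM deviation against log2 deposited gene length. DESeq2 1.42.0 and limma 3.58.1 were alternatives, with RLE and upper quartile scaling, other filters, TPM (pseudocount 1), a replicate block and each library left out. The fits were tested on simulated data. Members and lists were chosen with earlier results of these data known, and Fuz and the implied lengths were added after seeing values. The rule named all members, per role list the 2 genes of highest mean TPM and the one of smallest edgeR p, and the 5 genes most like Celsr1. Counting error is not given separately, since PCR copies are not independent molecules. No pair of libraries held the same values.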

Additional observations from a re-analysis of the deposited data

How the results depend on the processing

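With edgeR 0 genes were called in all, and the count was 1462 with DESeq2, 183 with no filter on low counts, 24 with the replicate block by title number, 2 with limma voom, 2 with the length offset, 1 with limma on TPM, 653 with the length offset and FNZ replicate 3 left out, and 0 to 3230 when single libraries were left out. Among the 10 polarity genes 1 (Celsr1) was called with DESeq2, with no filter and with the replicate block. With single libraries left out, 0 to 2 of 9 tested were called (Celsr1 and Celsr2, without FNZ replicate 3). Low values of Celsr1 chose the list, so its calls are no test and of the other genes only Celsr2 was called, under that single omission. Of 70 other pathway genes DESeq2 called 6. The count was 2 of 73 with no filter and 2 of 71 with the length offset without FNZ replicate 3. It was 0 to 16 of 71 with single libraries left out, with 16 reached without FNZ replicate 3. Over all genes the share called was 9.55% with DESeq2 and 17.6% without FNZ replicate 3. It was 183 of 32252 with no filter and 24 of 17735 with the replicate block. With the length offset without FNZ replicate 3 it was 653 of 18314. Scaling by RLE or upper quartile, the 1 CPM filter, robust = FALSE and a threshold of 0.1 gave 0 in all 3 counts. The cause was not tested.

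Signs turned in 24 single-gene values. With the length offset they were 0.16 (Vangl1), 0.32 (Fzd3), 0.053 (Fzd6), 0.12 (Scrib) and 0.049 (Erbin), and with FNZ replicate 3 also left out 0.14 (Vangl1), 0.39 (Fzd3), 0.11 (Fzd6), 0.15 (Scrib), 0.039 (Erbin), -0.0076 (Ryk) and 0.025 (Usp9x). With upper quartile scaling Fzd3 was 0.028 and Rhoa 0.035, and with limma on TPM Gpc4 was -0.016, Ryk -0.22 and Dvl1 -0.059. With single libraries left out Fzd3 ranged from -0.10 to 0.070, Fzd6 from -0.27 to 0.061 and Rhoa from -0.051 to 0.041. Titles share the numbers 2 and 3 only, and the labels do not say what the numbers mean. Same-numbered libraries did not deviate together (correlations -0.08 and -0.14). With only 2 shared numbers this cannot exclude a pairing. Under the replicate block Fzd6 was 0.13.

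On the CPM scale the log2 ratio of group means was -0.094 for Vangl1, -0.30 for Vangl2 and -0.017 for Fzd3, against -0.61, -0.67 and -0.26 in TPM. The Vangl2 share differed by -3.60 percentage points in CPM against 0.79 in TPM, and by -5.85 to 4.64 with single libraries left out. Those ranges were -6.52 to 2.28 for the Fzd6 share and -0.0846 to 3.44 for the Celsr3 share. With 3 libraries a group, and Celsr3 at 3 to 9.01 counts, small differences were not detectable.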
